A study of Mus musculus with 4 samples.

Results

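Clu (clusterin) and 9 further products of the mammary secretory epithelium (Lcn2, Ltf, Wfdc2, Spp1, Mfge8, Csn3, Muc1, Xdh and Elf5) were followed by RNA-seq in 4 libraries. All come from 4T1, a cell line established from a mouse mammary carcinoma that grows as an epithelial tumour. These genes are 10 of the 24411 genes listed in each library. Clu and Lcn2 were picked for their pattern in these same TPM values, so their values are given as a description with no test, whereas the other 8 were picked as mammary luminal or milk genes. The control group holds 2 libraries, control 1 and control 2, labelled only as control genotype. The protocols name untransduced 4T1 cells and the line that stably expresses Cas9 from a blasticidin-selected lentivirus as RNA sources, and the titles do not say which control is which. The CD95ko group holds 2 libraries, CD95ko 1 and CD95ko 2, named in the titles as knockouts of CD95, the death receptor for Fas ligand (gene symbol Fas). Each knockout line was grown from a single sorted cell of the Cas9-expressing line after transfection with guide RNAs against exon 9, so Cas9 and clonal origin come with the CD95ko label. Every library came from cultured cells with no further treatment named in the labels.

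The guides are shown because they define the knockout group, with the last 3 bases, the PAM that Cas9 needs beside its target, in capitals.
Guide 1: gccgggttcacatctgcgctAGG
Guide 2: cttgaggaatctgatgaccgTGG
Levels are in TPM, in which reads are divided by transcript length and every library is scaled to the same sum. Fas was listed at 49.4 and 39.2 TPM in controls 1 and 2, at 15.8 TPM in the library labelled CD95ko 1 and at 49.5 TPM in the library labelled CD95ko 2. Fas transcript was thus lower than in the controls in the first of the CD95ko libraries and not in the second (group difference -0.63 ± 0.54 SE on the log2(TPM + 1) scale, limma adjusted p = 0.615). Since 1 TPM value covers all exons of a gene, loss of exon 9 alone cannot be read from it, and every direction below refers to the libraries as labelled. Genes above 0 numbered 11193 to 12010 per library. The files give no read numbers, and the depth of the libraries is unknown. Nothing in the labels says that the libraries of a group came from separate experiments, so p-values measure only the spread between these libraries.

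The mammary gland secretes milk from luminal (alveolar) cells, in which prolactin acts through the kinase JAK2 and the factor STAT5, together with the ETS factor ELF5, to turn on the caseins and whey proteins. The same cells wrap fat droplets in a membrane that carries MUC1, xanthine dehydrogenase (XDH) and MFGE8, and they release antimicrobial proteins such as lactoferrin (LTF), lipocalin 2 (LCN2) and WFDC2. Clusterin is a secreted chaperone that binds unfolded proteins and inhibits the terminal complement complex, and it is known for its strong induction while the gland regresses after weaning.

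RefSeq promoter windows (GRCm38.p6) were found for 7 of the 10 genes, and Clu, Csn3 and Xdh had no entry. The 250 bases before the start site are shown for Spp1, Mfge8 and Muc1, the genes whose window holds no annotated exon, because Spp1 differed between the CD95ko libraries, Mfge8 was nearly level and Muc1 was close to 0. Capitals mark a TATAAA box or a CCAAT box, on either strand.
Spp1 promoter, chr5:104434861-104435110, forward strand: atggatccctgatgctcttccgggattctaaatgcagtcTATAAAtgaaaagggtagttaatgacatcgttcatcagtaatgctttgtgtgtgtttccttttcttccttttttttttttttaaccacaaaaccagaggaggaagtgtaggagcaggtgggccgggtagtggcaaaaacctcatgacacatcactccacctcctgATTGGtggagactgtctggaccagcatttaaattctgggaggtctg
Mfge8 promoter, chr7:79149061-79149310, reverse strand: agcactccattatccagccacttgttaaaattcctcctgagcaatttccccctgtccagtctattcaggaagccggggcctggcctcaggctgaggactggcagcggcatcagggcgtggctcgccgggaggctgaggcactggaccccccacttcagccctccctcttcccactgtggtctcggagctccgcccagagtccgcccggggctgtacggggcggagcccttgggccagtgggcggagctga
Muc1 promoter, chr3:89228806-89229055, forward strand: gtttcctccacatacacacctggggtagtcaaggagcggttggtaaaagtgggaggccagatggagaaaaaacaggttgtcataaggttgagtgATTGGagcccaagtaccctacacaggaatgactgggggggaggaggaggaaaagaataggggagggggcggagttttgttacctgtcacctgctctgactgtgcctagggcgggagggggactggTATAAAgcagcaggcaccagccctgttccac
The Muc1 window held TATAAA, its first base 31 bases before the start site, and a reverse-strand CCAAT box whose first base lay 156 bases before it. The Spp1 window held TATAAA at 211 bases and a reverse-strand CCAAT box at 46 bases. Neither was found in the Mfge8 window. The STAT5 motif TTCNNNGAA and the AP-1 motif TGANTCA, searched on both strands, were found in no window of the 7 genes. Over all 32851 promoter windows of this length, 7.02% held the STAT5 motif, 6.75% the AP-1 motif, 12.4% TATAAA and 33.8% CCAAT.

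Clu, which lies on chromosome 14 from 65968483 to 65981547 (GRCm38, GENCODE M21, forward strand), was listed at 97.4 TPM in control 1, 66.95 TPM in control 2, 819 TPM in the library labelled CD95ko 1 and 831 TPM in the library labelled CD95ko 2. Both CD95ko libraries lay far above both controls, and they lay closer to each other than the controls did. The mean was 825 ± 8.85 TPM against 82.2 ± 21.5 TPM in the controls (SD, n = 2 in each group), a ratio of 10.0, and it was 9.96 times the control mean in the library labelled CD95ko 1 and 10.1 times in the library labelled CD95ko 2. By level among the 24411 listed genes, Clu stood at place 1685 in controls 1 and 2061 in control 2, and at places 170 and 172 in the libraries labelled CD95ko 1 and CD95ko 2. The chaperone thus stood among the 172 highest listed genes in both CD95ko libraries and at moderate places in both controls. In bulk RNA, more cells with a transcript and more transcript per cell cannot be told apart.

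Lcn2, the siderophore-binding lipocalin that withholds iron from bacteria (chromosome 2, 32384633 to 32388252, reverse strand), followed another course. It was listed at 383 TPM in control 1, 497 TPM in control 2, 214 TPM in the library labelled CD95ko 1 and 2323 TPM in the library labelled CD95ko 2. The CD95ko libraries lay on opposite sides of both controls, 10.9-fold apart, and the controls lay between them. Relative to the control mean of 440 ± 80.2 TPM (SD, n = 2), Lcn2 was at 0.486 times in the library labelled CD95ko 1 and at 5.28 times in the library labelled CD95ko 2. The log2 difference between the groups was 0.69 with all libraries, 2.41 without CD95ko 1 and -1.02 without CD95ko 2, so its direction was set by which CD95ko library was used. Libraries of the CD95ko group spread more than those of the control group across all 11167 tested genes as well. Over those genes, the SD of the log2 difference between the CD95ko libraries was 1.04, and that between the controls was 0.66.

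**Figure D1:**
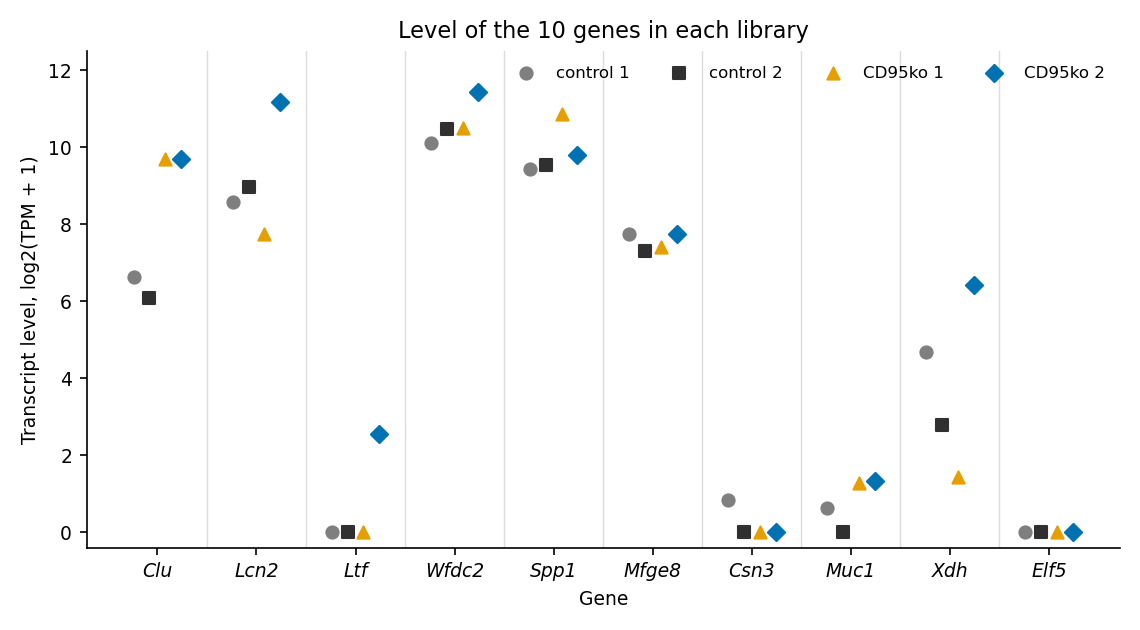
Transcript level of the 10 genes as log2(TPM + 1) (vertical axis) in each of the 4 libraries, 1 symbol per library, with genes along the horizontal axis. Clu is at 819 and 831 TPM in the CD95ko libraries and at 97.4 and 66.95 TPM in control 1 and control 2, Lcn2 is at 214 TPM in CD95ko 1 and 2323 TPM in CD95ko 2, and Elf5 is at 0 in all 4.

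Among the defence proteins, Wfdc2, a secreted protein with whey acidic protein domains (chromosome 2, 164562413 to 164568510, forward strand), was the most abundant of the 10 genes in 3 of the 4 libraries. It was listed at 1100.5 TPM in control 1, 1417 TPM in control 2, 1435 TPM in the library labelled CD95ko 1 and 2780 TPM in the library labelled CD95ko 2. The groups did not overlap, but CD95ko 1 lay only just above control 2, and CD95ko 2 lay apart from the other 3 libraries. The group difference of 0.68 ± 0.36 SE on the log2(TPM + 1) scale did not pass the test over all 11167 genes (limma adjusted p = 0.41). Without the library labelled CD95ko 1 it was 1.15 (limma adjusted p = 0.019), and without the library labelled CD95ko 2 it was 0.20 (limma adjusted p = 0.852). In each of these fits the single CD95ko library is assumed to vary like the controls.

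Ltf, the iron-binding milk protein lactoferrin (chromosome 9, 111019271 to 111042767, forward strand), was listed at 0 in both controls and in the library labelled CD95ko 1, and at 4.86 TPM in the library labelled CD95ko 2. It was detected in the same library in which Lcn2 and Wfdc2 had their highest values. With values in 1 library only, it did not pass the filter and has no test.

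Spp1, which encodes osteopontin, an acidic secreted protein that binds integrins and CD44 (chromosome 5, 104435118 to 104441050, forward strand), was highest in the other CD95ko library. It was listed at 686 TPM in control 1, 736 TPM in control 2, 1862 TPM in the library labelled CD95ko 1 and 883 TPM in the library labelled CD95ko 2. The groups did not overlap, and the CD95ko libraries were 2.11-fold apart while the controls were 1.07-fold apart. The group difference was 0.85 ± 0.37 SE on the log2(TPM + 1) scale and did not pass the test (limma adjusted p = 0.326). It was 1.39 without the library labelled CD95ko 2 (limma adjusted p = 0.0121) and 0.31 without the library labelled CD95ko 1 (limma adjusted p = 0.554). In GENCODE M21, 309 exon bases of Spp1 are shared with a gene model on the same strand that the tables do not list, and the exons of the other 9 genes are shared with no other gene.

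Mfge8, the milk fat globule protein that bridges phosphatidylserine on dying cells to integrins (chromosome 7, 79133768 to 79149060, reverse strand), was the most even of the abundant members. It was listed at 213 TPM in control 1, 157 TPM in control 2, 170 TPM in the library labelled CD95ko 1 and 214 TPM in the library labelled CD95ko 2. The groups overlapped, with 185 ± 39.5 TPM in the control group and 192 ± 31.3 TPM in the CD95ko libraries (SD, n = 2 in each group). The difference of 0.06 ± 0.32 SE on the log2(TPM + 1) scale was smaller than the spread within each group (limma adjusted p = 0.954). It was -0.16 without control 2 and -0.11 without the library labelled CD95ko 2.

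Of the other membrane proteins of the fat globule, Xdh, the purine-oxidising enzyme that also acts in fat droplet secretion (chromosome 17, 73883895 to 73950196, reverse strand), varied most. It was listed at 24.45 TPM in control 1, 5.87 TPM in control 2, 1.69 TPM in the library labelled CD95ko 1 and 84.6 TPM in the library labelled CD95ko 2. As for Lcn2, the CD95ko libraries lay below and above both controls, here 50.0-fold apart, and the controls themselves were 4.17-fold apart. The group difference was 0.20 ± 1.35 SE on the log2(TPM + 1) scale (limma adjusted p = 0.963). It turned from 2.69 (limma adjusted p = 0.0196) without the library labelled CD95ko 1 to -2.30 (limma adjusted p = 0.214) without the library labelled CD95ko 2, and it was -0.75 without control 2.

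Muc1, a transmembrane mucin of the apical surface (chromosome 3, 89229057 to 89233381, forward strand), was close to 0 throughout. It was listed at 0.54 TPM in control 1, 0 in control 2, 1.44 TPM in the library labelled CD95ko 1 and 1.5 TPM in the library labelled CD95ko 2. It passed the filter on low values only through the CD95ko libraries, so its groups had to differ by that choice, and its difference of 0.99 ± 0.70 SE did not pass the test (limma adjusted p = 0.54). With a pseudocount of 0.1 the difference was 2.63 (limma adjusted p = 0.522).

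Casein and its regulator were at or near the bottom. Csn3, which encodes κ-casein, the protein that keeps casein micelles in solution (chromosome 5, 87925579 to 87932665, forward strand), was listed at 0.79 TPM in control 1 and at 0 in the other 3 libraries. Elf5, the alveolar ETS factor (chromosome 2, 103411688 to 103450989, forward strand), was listed at 0 in all 4 libraries and was the only member of the 10 of which this holds.

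**Figure D2:**
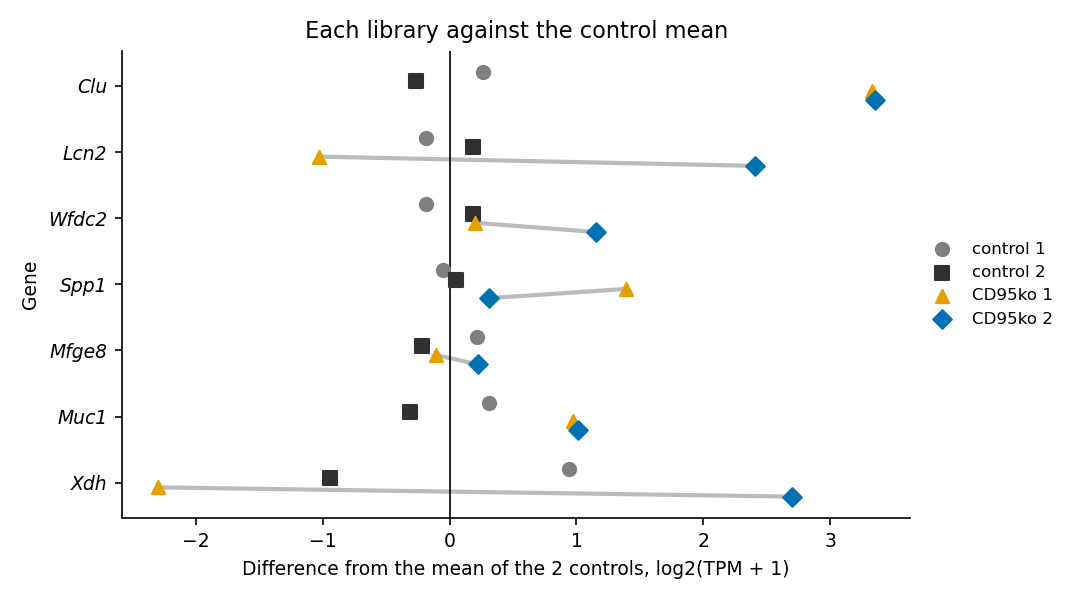
Difference of each library from the mean of the 2 controls in log2(TPM + 1) (horizontal axis) for the 7 genes that passed the filter (vertical axis), 1 symbol per library, with a grey line joining the CD95ko libraries. The CD95ko symbols of Clu nearly coincide, those of Lcn2 and Xdh lie on both sides of the controls, and Spp1 is higher in CD95ko 1 than in CD95ko 2.

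Across the set, 7 of the 10 genes had at least 1 TPM in at least 2 libraries and entered the fit over 11167 genes, among them 5 of the 8 picked by function. None of these 5 passed the limma threshold (adjusted p of 0.05), which 0.0537% of all tested genes did. The only member of the 5 below an unadjusted 0.05 in limma was Spp1 (unadjusted p = 0.0468), where 14.9% of all tested genes were. With robust eBayes in limma the count was also 0 (0.466% of all tested genes), again with 1 below an unadjusted 0.05. Without CD95ko 1, 2 of the 5 passed (Wfdc2 and Xdh; 9.26% of all tested genes), and without CD95ko 2, 1 passed (Spp1; 1.74% of all tested genes). Leaving aside Muc1, which passed the filter only through the CD95ko libraries, the groups did not overlap for 2 of 4 (Wfdc2 and Spp1), both higher in the CD95ko libraries, as were 29.2% of all tested genes. The median log2 difference of all tested genes was 0.13, and it was 0.002 after quantile normalization, so relative to the other genes Mfge8 was at -0.07 as deposited and 0.06 after quantile normalization. The same relative differences as deposited were 0.72 for Spp1, 0.55 for Wfdc2, 0.86 for Muc1 and 0.07 for Xdh.

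For 4 of the 5 tested members picked by function, all but Muc1, the CD95ko libraries differed from each other by more than the groups did. The share of all tested genes for which this holds was not counted, so it cannot be read as particular to these members. On the log2(TPM + 1) scale, CD95ko 2 exceeded CD95ko 1 by 4.99 for Xdh and 3.43 for Lcn2, and by 0.95 for Wfdc2, 0.33 for Mfge8, 0.04 for Muc1 and 0.02 for Clu, while the difference was -1.07 for Spp1. Of the 5 tested members picked by function, 1, Xdh, was over 2-fold higher in CD95ko 2 and 1, Spp1, was over 2-fold lower, compared with 9.9% and 13.4% of all tested genes. Between the controls, 1 of the 5, Xdh, was over 2-fold apart (14.4% of all tested genes). The 10 genes together took 0.251% and 0.288% of the TPM in control 1 and control 2, 0.45% in the library labelled CD95ko 1 and 0.712% in the library labelled CD95ko 2. These sums hold Clu and Lcn2, which were picked for their pattern in the same values, so the course of the sums was set in part by that choice. Of 4502 TPM in CD95ko 1 and 7122 TPM in CD95ko 2, Clu made up 819 and 831 TPM and Lcn2 214 and 2323 TPM.

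The genes most like Clu were taken as those at the smallest Euclidean distance in log2(TPM + 1), each gene centred on its mean over the 4 libraries. They were Galnt15 (distance 0.39), Ephb6 (0.43), Narf (0.48), Gpr160 (0.50) and Arhgap40 (0.54). Ephb6, an ephrin receptor without kinase activity, was listed at 2.52 and 1.38 TPM in controls 1 and 2 and at 20.4 and 20.9 TPM in the CD95ko libraries. Galnt15, a glycosyltransferase of mucin-type glycans, was listed at 0 in both controls and at 9.61 and 8.62 TPM in the CD95ko libraries. Gpr160 and Arhgap40 were also at 0 in both controls. Like Galnt15, they passed the filter only through the CD95ko libraries, and their distance to Clu depends on the pseudocount of 1. All 5 were far less abundant than Clu, the highest value among them being 28.05 TPM for Narf in CD95ko 2.

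The genes most like Lcn2 by the same measure were Il12rb1 (distance 0.30), Cahm (0.37), Phf11c (0.43), Ctla2a (0.48) and Pstpip1 (0.49). Il12rb1, a subunit of the interleukin 12 receptor, was listed at 3.34 and 3.21 TPM in controls 1 and 2, 1.11 TPM in CD95ko 1 and 23.1 TPM in CD95ko 2. Pstpip1, an adaptor of the actin cytoskeleton, was listed at 19.4, 23.5, 8.85 and 77.7 TPM in the same order. These genes were the nearest of 11167 over only 4 libraries, and the likeness is a description.

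**Figure D3:**
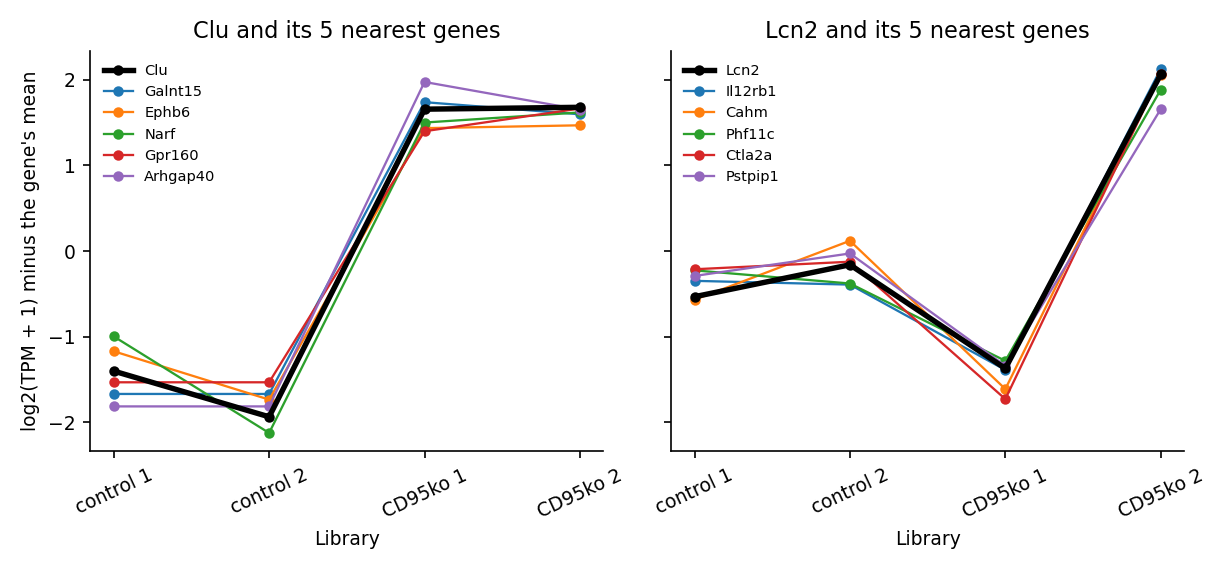
Values of log2(TPM + 1) minus the gene's own mean (vertical axis) in the 4 libraries (horizontal axis) for Clu (left, thick line) and Lcn2 (right, thick line), each with its 5 nearest genes. Clu and its neighbours are level across both CD95ko libraries, while Lcn2 and its neighbours are lowest in CD95ko 1 and highest in CD95ko 2.

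The genes around these members were read from 7 lists. Their medians are to be read beside the median log2 difference of all tested genes, 0.13 with all libraries. That baseline was 0.31 without control 1, -0.06 without control 2, 0.10 without CD95ko 1 and 0.19 without CD95ko 2. Over all tested genes, the median log2 difference of control 2 from control 1 was -0.35. Of the 24411 listed genes, 12974 were above 0 in at least 1 library, and the counts of list genes at 0 are to be read beside that. Clu and Lcn2, which were picked for their pattern and have no test, are left out of the medians and of the counts of tested genes, and none of the other genes passed the test over all genes. Of the 8 caseins and whey proteins, 7 were listed at 0 in all libraries (Csn1s1, Csn1s2a, Csn1s2b, Csn2, Wap, Lalba and Glycam1) and 0 passed the filter. The luminal markers were high: 9 of 11 were tested, their summed level was 6714.5 and 6278.5 TPM in controls 1 and 2, against 10238 and 14532 TPM in the CD95ko libraries, and Prom1 and Kit were at 0. Of these 9, 8 were higher and 1, Cldn3, was lower in both CD95ko libraries than in both controls, where 29.2% of all tested genes were higher and 18.3% lower. None passed the adjusted test in limma, and 7 had an unadjusted p under 0.05, as did 14.9% of all tested genes. The part of the luminal markers in the level of Clu was not tested.

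Of the 10 genes of the milk fat globule and its membrane, 6 were tested, and their median log2 difference was 0.68 against 0.13 for all tested genes. The 6 include Muc1 (0.99), which passed the filter only through the CD95ko libraries, so the excess over all tested genes was in part set by the filter. The median was 1.22 without control 1, 1.17 without CD95ko 1 and 0.36 with no filter on low values. None passed the test in limma and 2 had an unadjusted p under 0.05, a share to be read against the 14.9% of all tested genes. Btn1a1, the butyrophilin that coats fat globules together with XDH, was listed at 2.76 and 0 TPM in controls 1 and 2 and at 6.39 and 5.72 TPM in the CD95ko libraries (limma adjusted p = 0.302). Plin3, a lipid droplet coat protein, was 61.3 ± 16.5 TPM in the control group and 129 ± 34.4 TPM in the CD95ko libraries (SD, n = 2; log2 difference 1.06 ± 0.37 SE, limma adjusted p = 0.239). Plin2, the main droplet coat protein of milk cells, differed by 0.36 ± 0.32 SE (limma adjusted p = 0.629).

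Of 15 secreted defence proteins, 6 were listed at 0 in all libraries and 4 were tested besides Lcn2. The median log2 difference of these 4 was -0.51, and it was 0.73 without CD95ko 1, -1.49 without CD95ko 2 and 0.64 with no filter on low values. None passed the test in limma, and 2 had an unadjusted p under 0.05, 1 higher and 1 lower, against 14.9% of all tested genes. The 1 lower was Saa3, which passed the filter only through the controls, so its groups had to differ by that choice. Saa3 (log2 difference -3.18) also entered the median of the 4, so the sign of that median was in part set by the filter. Saa3, an acute phase protein, was listed at 2.98 and 19.6 TPM in controls 1 and 2 and at 0 in both CD95ko libraries (limma adjusted p = 0.164). Slpi, a leukocyte protease inhibitor, was listed at 117 and 75.6 TPM in controls 1 and 2, 6.22 TPM in CD95ko 1 and 117 TPM in CD95ko 2 (limma adjusted p = 0.472). Chil1, a chitinase-like protein, was listed at 2.22 and 1.62 TPM in controls 1 and 2, 4.89 TPM in CD95ko 1 and 26.6 TPM in CD95ko 2 (limma adjusted p = 0.259). On the log2 scale, CD95ko 2 exceeded CD95ko 1 by 4.03 for Slpi and 2.23 for Chil1. The median of this difference over the 4 genes, with Saa3 at 0 among them, was 1.59, and it was -0.10 over all tested genes.

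Among the 9 extracellular chaperones and apolipoproteins, 5 were listed at 0 in all libraries, and 2, Cst3 and Apoe, were tested besides Clu. The groups overlapped for both, and their median log2 difference was 0.49, which was 1.21 with a pseudocount of 0.1, 0.32 with no filter, 1.3 without control 1 and -0.32 without control 2. Cst3, the secreted protease inhibitor cystatin C, was 353 ± 34.4 TPM in the control group and 453 ± 163 TPM in the CD95ko libraries (SD, n = 2; limma adjusted p = 0.687). Apoe was listed at 9.81 and 0 TPM in controls 1 and 2 and at 5.77 and 3.02 TPM in the CD95ko libraries (limma adjusted p = 0.805).

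Of 14 receptors for the secreted members, 7 were tested and 4, the clusterin receptors Lrp2, Trem2 and Plxna4 and the lipocalin receptor Slc22a17, were listed at 0 in all libraries. The median log2 difference was -0.02, it was 0.15 with no filter on low values and -0.27 under quantile normalization, and it was 0.45 without CD95ko 1, 0.30 without control 1 and -0.20 without control 2. None passed the test in limma, and 1 had an unadjusted p under 0.05 (14.9% of all tested genes). Itgb5, the integrin subunit that with ITGAV binds MFGE8 and osteopontin, was listed at 66.4 and 48.6 TPM in controls 1 and 2, 109 TPM in CD95ko 1 and 316 TPM in CD95ko 2 (log2 difference 1.69 ± 0.49 SE, limma adjusted p = 0.185). Its partner Itgav went the other way, at 30.3 and 24.9 TPM in controls 1 and 2 and 19.4 and 17.3 TPM in the CD95ko libraries. Lrp1 differed by 1.16 ± 0.84 SE (limma adjusted p = 0.546) and Itgb1 by 0.37 ± 0.27 SE (limma adjusted p = 0.558). Cd44, the osteopontin receptor, was listed at 85.75 and 89.5 TPM in controls 1 and 2 and 84.7 and 65.3 TPM in the CD95ko libraries.

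Of 20 regulators of secretory differentiation, 14 were tested and 6 were listed at 0 in all libraries, Elf5 and the prolactin receptor Prlr among them. Their median log2 difference was 0.52, and it was 1.08 without CD95ko 1, 0.14 without CD95ko 2, 0.82 without control 1 and 0.20 without control 2. None passed the test in limma, and 2 had an unadjusted p under 0.05, against 14.9% of all tested genes. Jak2, the kinase bound to the prolactin receptor, was 18.05 ± 7.6 TPM in the control group and 56.65 ± 22.3 TPM in the CD95ko libraries (SD, n = 2; log2 difference 1.60 ± 0.47 SE, limma adjusted p = 0.191). Foxa1, a luminal pioneer factor, was listed at 1.12 and 0.41 TPM in controls 1 and 2 and at 4.95 and 5.18 TPM in the CD95ko libraries (limma adjusted p = 0.25). Elf3, an epithelial ETS factor, was listed at 73.1 and 62.7 TPM in controls 1 and 2, 80.4 TPM in CD95ko 1 and 276 TPM in CD95ko 2 (limma adjusted p = 0.358). Of the 14, 13 were higher in CD95ko 2 than in CD95ko 1, where 44.1% of all tested genes were, and 5 were over 2-fold higher with 0 over 2-fold lower (9.9% and 13.4% of all tested genes). Stat5a, which relays the prolactin signal, was listed at 5.65 and 2.17 TPM in controls 1 and 2, 0.89 TPM in CD95ko 1 and 24.7 TPM in CD95ko 2, the same order of libraries as for Xdh.

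Of 18 genes of milk lactose and lipid synthesis, 15 were tested, with a median log2 difference of 0.49, which was 0.30 without control 2, 0.32 without control 1 and 0.28 under quantile normalization. None passed the test in limma, and 4 had an unadjusted p under 0.05, against 14.9% of all tested genes. Srebf1, the lipogenic transcription factor, was 16.6 ± 6.42 TPM in the control group and 40.5 ± 3.71 TPM in the CD95ko libraries (SD, n = 2; log2 difference 1.29 ± 0.44 SE, limma adjusted p = 0.239). Scd2, a fatty acid desaturase, was 98.9 ± 1.2 TPM against 173 ± 9.15 TPM (SD, n = 2; limma adjusted p = 0.273). Lpin1, a phosphatidate phosphatase, was listed at 1.49 and 0.7 TPM in controls 1 and 2 and at 5.36 and 5.31 TPM in the CD95ko libraries (limma adjusted p = 0.277).

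**Figure D4:**
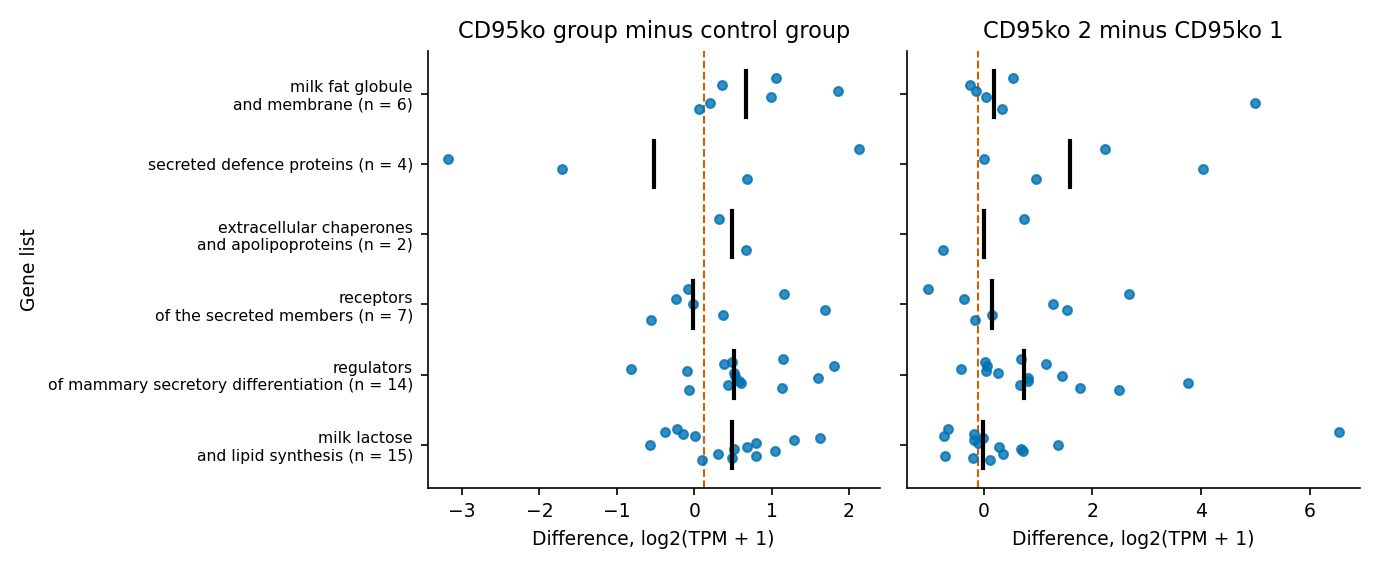
Differences in log2(TPM + 1) (horizontal axes) of the tested genes of 6 lists (vertical axis) without Clu and Lcn2, CD95ko group minus control group on the left and CD95ko 2 minus CD95ko 1 on the right. Each point is a gene, black bars are list medians and the dashed line is the median of all tested genes, 0.13 on the left and -0.10 on the right. In the right panel, 13 of the 14 regulators lie above 0.

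Lcn2, Ltf and Spp1 are also known from neutrophils and macrophages, so markers of other cells were read in the same libraries. Of 9 neutrophil markers found, 8 were listed at 0 in all libraries and the ninth, S100a8, was at 10.3 TPM in control 2 and at 0 elsewhere, so the neutrophil markers were all at 0 in the library with the highest Lcn2 and Ltf. Of 9 macrophage or leukocyte markers, 6 were at 0 throughout, among them Ptprc, Adgre1, Itgam and Lyz2, and the summed level was 57.8 and 46.2 TPM in control 1 and control 2, 53.0 TPM in CD95ko 1 and 253 TPM in CD95ko 2. In CD95ko 2 that sum came from Cd68 (146 TPM), Cd14 (102 TPM) and Csf1r (5.07 TPM). In CD95ko 1, Cd68 was at 17.8 TPM, Cd14 at 12.95 TPM and Csf1r at 22.2 TPM, so Csf1r went the other way. The part of the neutrophil, macrophage or leukocyte markers in the values of Lcn2, Ltf and Spp1 was not tested. Adipocyte markers were at 0 in all libraries (6 of 6), endothelial markers reached at most 0.28 TPM in sum and fibroblast markers at most 4.52 TPM. Basal markers summed to 25.8 and 48.3 TPM in control 1 and control 2, 8.91 TPM in CD95ko 1 and 158 TPM in CD95ko 2, the last from Krt14, while Krt5 and Trp63 were at 0.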

How the data were processed

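Poly(A)-selected RNA of 4 cultures was sequenced, and each library has a deposited table of TPM for 24411 gene symbols, per the file headers. STAR 2.6.0, RSEM 1.3.0 and the build mm10 are named in the submitters' processing notes; the annotation, strand setting and filters are not given in the sources used here. Groups came from the sample titles. The 11167 genes that reached 1 TPM in 2 or more libraries were transformed to log2(TPM + 1) and compared with limma 3.58.1 in R 4.3.3 (eBayes with trend, two-sided, Benjamini-Hochberg adjusted over all tested genes, threshold 0.05). Fold differences on this scale understate changes of low genes. An exact permutation test of 2 against 2 cannot give a two-sided p below 0.333. The procedure was run on simulated data in which each gene varied equally in both groups. The CD95ko libraries spread more than the controls, so that run does not show how the test behaves here. Depth is unknown, so no counting interval is given.

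The members and gene lists were chosen with earlier results of these data known, and Clu and Lcn2 are left out of the lists' medians and counts of tested genes. The genes named are all 10 members, up to 3 further genes per list by the smallest unadjusted p, the 5 genes nearest to Clu and to Lcn2, and marker genes beside results. Stat5a, Cd44, Itgav and genes listed at 0 were chosen after their values were seen. Older symbols were matched through the RefSeq table of GRCm38.p6, as were promoters. TATAAA and CCAAT were added as motifs after the planned ones had been searched. The alternatives were a pseudocount of 0.1, no filter, no trend, quantile normalization, a replicate block, each library left out and, added after seeing the data, robust eBayes and the same scalings for the difference between the CD95ko libraries.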

Additional observations from a re-analysis of the deposited data

How the results depend on the processing

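In limma, 6 genes passed the adjusted threshold as reported, and 0 passed with a pseudocount of 0.1, with no filter, without the trend and under quantile normalization (at an unadjusted p under 0.05 there were 1553, 1636, 1531 and 1862, and 1667 as reported). The count was 2 with the replicate block and 52 with robust eBayes, and 0 to 1034 with a library left out, where the lone library of a group is assumed to vary like the other group. The number of members picked by function past the threshold was 0 in every setting with 4 libraries, and 0 to 2 with a library left out. The cause of these changes was not tested. The replicate numbers in the titles were not taken as pairs. Deviations of same-numbered libraries correlated at -0.081 across genes. With 2 libraries in each group, this cannot show whether same-numbered libraries were handled together. Under the replicate block, Spp1 had a limma adjusted p of 0.356 and Wfdc2 of 0.40.

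The spread between libraries with a pseudocount of 0.1 was 1.03 for the controls and 1.59 for the CD95ko libraries. The median log2 difference of all tested genes itself moved, from -0.06 without control 2 to 0.31 without control 1. The medians of the lists, without Clu and Lcn2, ranged with a library left out from 0.64 to 1.22 for the fat globule genes, -1.49 to 0.73 for the defence proteins, -0.32 to 1.3 for the chaperones and apolipoproteins, -0.20 to 0.45 for the receptors, 0.14 to 1.08 for the regulators and 0.30 to 0.49 for lactose and lipid synthesis. The difference of Muc1, 0.99 as reported, was 2.63 with a pseudocount of 0.1. Directions reversed for Lcn2 (-1.02), Xdh (-2.30) and Mfge8 (-0.11) without CD95ko 2, and for Mfge8 (-0.16) and Xdh (-0.75) without control 2. The small difference of Clu between the CD95ko libraries reversed under quantile normalization (-0.016). With a library left out, the log2 group difference ranged from -1.02 to 2.41 for Lcn2, from -0.16 to 0.28 for Mfge8 and from -2.30 to 2.69 for Xdh. The log2 difference of Clu between the groups lay within 3.31 to 3.35 in all settings with 4 libraries. It lay within 3.07 to 3.60 with a library left out. Clu was picked for its pattern in these same values, so this narrow range was in part set by that choice.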
